A study of Mus musculus with 2 samples.

Results

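The trophectoderm is the outer epithelium of the blastocyst, the lineage that gives rise to the trophoblast of the placenta. Embryonic stem cells (ESCs), which derive from the inner cell mass, normally keep several of its transcription factors low. The factors described here are the 9 genes Cdx2, Eomes, Elf5, Gata3, Tfap2c, Tfap2a, Tead4, Hand1 and Esx1. They were measured by 11 of the 55681 probes on the array, found through the RefSeq accession printed for each probe, and every probe of each gene was taken. Of the 11 probes, 9 (8 genes) were well above background in both channels on both arrays and were tested among 38393 probes. The Elf5 probe and 1 of the 2 Tfap2a probes were not well above background in either channel on either array.

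The series compared ESCs labelled HDAC6 overexpression with WT ESCs, on 2 Agilent arrays that hold both conditions. HDAC6 is a mainly cytoplasmic deacetylase. On each array the overexpression RNA carried Cy5 and the WT RNA Cy3, with no dye swap, so dye effects stay in every ratio. Both cell populations were of strain B6C3F1, at passage 26, and were maintained with LIF on mitomycin C treated feeder fibroblasts. How HDAC6 was introduced, and whether the cells were 1 clone, is not given in the sources used here. Replicates 1 and 2 are biological according to the labels. The deposited files number the cell material alike on both arrays, so if the cultures were not separate the p-values below measure a technical spread.

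Signals are the processed signals of the scanner software, which are background-subtracted and dye-normalized and have an arbitrary unit. A ratio is the overexpression signal over the WT signal, and a mean log2 ratio is given ± SD over n = 2 arrays, with a 95% interval from limma. The dyes were balanced within each array, so a rise or fall is relative to that balance and is not an absolute amount. An adjusted p is that of limma's moderated test of the log2 ratio against 0, Benjamini-Hochberg adjusted over all 38393 probes, and a probe was called at 0.05. Signals of different probes depend on the probe as well as on the RNA and are not ranked against each other.

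In mouse development these factors act in a known order. TEAD4, which binds DNA with the Hippo-pathway coactivator YAP, is needed for the trophectoderm to form and to switch on Cdx2 and Gata3. CDX2, EOMES, ELF5 and the AP-2 protein encoded by Tfap2c then maintain the trophoblast stem cell state, and HAND1 and ESX1 act later, in giant cells and in the labyrinth of the placenta. Most of them also have roles elsewhere, such as Eomes and Hand1 in mesoderm and Tfap2a in neural crest and surface ectoderm. OCT4, encoded by Pou5f1, represses Cdx2 in ESCs.

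RefSeq promoter entries (GRCm38.p6) were at hand for 6 of the 9 genes, with 8 entries in all; Tfap2c, Tead4 and Hand1 were not among them. The 250 bases before the gene start are shown 5′ to 3′ for Cdx2 and Eomes, the factors with the highest ratios among those with an entry, and for Gata3, which had the most motif matches. Capitals mark matches, on either strand, to 6 motifs. The letters searched were GGAATG for TEAD factors, GCCNNNGGC for AP-2 proteins, AGATAA for GATA factors, TTTATG for CDX proteins, GGTGTG for T-box factors and ATGCAAAT for the octamer bound by POU factors such as OCT4. They lie at chr5:147307250-147307499 (minus strand) for Cdx2, chr9:118477939-118478188 (plus strand) for Eomes and chr2:9878601-9878850 (minus strand) for Gata3.
Cdx2: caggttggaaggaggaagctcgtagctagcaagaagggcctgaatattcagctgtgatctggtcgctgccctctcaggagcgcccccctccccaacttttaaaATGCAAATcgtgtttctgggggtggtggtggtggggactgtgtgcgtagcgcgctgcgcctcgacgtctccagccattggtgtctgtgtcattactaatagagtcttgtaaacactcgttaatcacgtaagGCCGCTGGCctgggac
Eomes: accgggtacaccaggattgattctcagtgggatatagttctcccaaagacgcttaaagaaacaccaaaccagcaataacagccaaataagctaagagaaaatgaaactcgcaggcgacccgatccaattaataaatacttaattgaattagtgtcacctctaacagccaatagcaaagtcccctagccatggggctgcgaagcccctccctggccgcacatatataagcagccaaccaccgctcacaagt
Gata3: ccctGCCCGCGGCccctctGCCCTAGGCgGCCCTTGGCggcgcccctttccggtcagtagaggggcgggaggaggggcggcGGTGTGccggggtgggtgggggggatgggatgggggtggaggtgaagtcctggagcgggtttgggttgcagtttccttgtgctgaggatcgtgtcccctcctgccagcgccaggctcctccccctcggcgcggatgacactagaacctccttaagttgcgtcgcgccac

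The Cdx2 window held 1 octamer match, whose first base lies 147 bases before the gene start, and 1 AP-2 match 16 bases before it. The octamer letters were present in 1.60% of all 32851 promoter windows of this length, and the AP-2 letters in 13.7%. The Gata3 window held 3 AP-2 matches and 1 T-box match (letters present in 16.3% of windows), none of them overlapping, and the Eomes window held no match to the 6 motifs. Of the other entries, TEAD letters (12.6% of windows) were found in 1 of the 2 Elf5 windows, CDX letters (10.8%) in 1 Elf5 and 1 Tfap2a window, and T-box letters in 1 Elf5 window and that of Esx1. GATA letters (9.99% of windows) were in none of the 8. GC content was 70% for Gata3, 55.2% for Cdx2, 54% for Esx1 and 46.4% for Eomes, against a median of 52.4% over all windows. The shares of windows with a match were not matched for GC content. These matches describe letters in a window and do not show binding.

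Of the 9 tested probes, 8 rose in the overexpression channel and none fell, at changes between 1.38-fold and 2.43-fold. Over all 38393 probes 23.1% were called higher and 23% lower, 46.1% in all. The ninth, the Tfap2c probe, was higher on both arrays without passing the test. Tead4 and Cdx2 had the highest mean ratios of the factors, followed by Eomes, and Gata3, Esx1 and Hand1 rose by smaller amounts. The median log2 ratio was 0.69 over the 9 probes (0.73 in replicate 1 and 0.58 in replicate 2), beside 0.019 over all probes tested. As 2 of the probes belong to Eomes, the counts by gene are 7 of 8 higher and 0 lower. RNA was taken from the bulk culture, so more cells expressing a factor and more of its RNA per cell cannot be told apart.

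**Figure D1:**
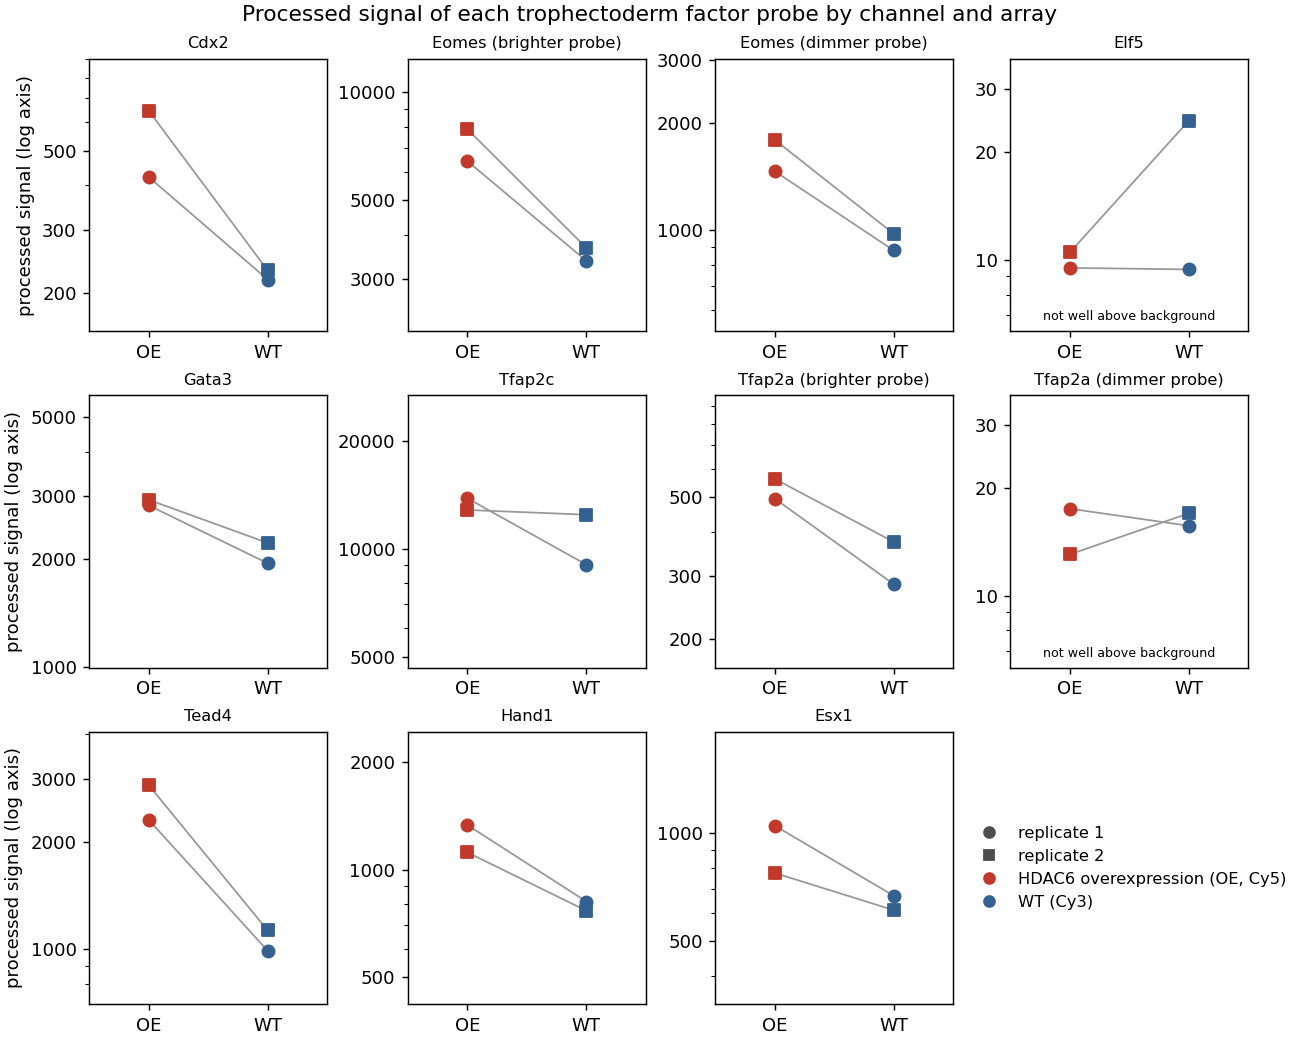
Processed signal (arbitrary unit, log axis with a span of equal ratio in each panel) of the 11 probes in the overexpression (OE) and WT channels, with a line joining the channels of 1 array. For Tead4, Cdx2 and both Eomes probes the 2 OE points lie above the 2 WT points, at 422 and 646 against 218 and 231 for Cdx2, while the lines of Tfap2c differ in slope and those of Elf5 and the dimmer Tfap2a probe are not well above background.

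Tead4, the earliest acting of the factors, had signals of 2302 (replicate 1) and 2879 (replicate 2) in the overexpression channel, against 992 and 1131 in the WT channel. The channels did not overlap, and both arrays passed a 2-fold change, with ratios of 2.32 and 2.55. The mean log2 ratio was 1.28 ± 0.095, which is 2.43-fold (95% interval 2.04 to 2.90, adjusted p = 0.00070). Tead4 was the only probe of the 9 that was at least 2-fold higher on both arrays, a rule met by 2.73% of all probes, while 3.55% were at least 2-fold lower on both. The gene lies on chromosome 6.

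Cdx2, on chromosome 5, encodes the caudal-type homeodomain factor that represses the pluripotency programme in the trophectoderm. Its signals were 422 and 646 in the overexpression channel, against 218 and 231 in the WT channel. The WT values lay close together and the overexpression values did not, giving a ratio of 1.93 (replicate 1) and 2.79 (replicate 2). The mean log2 ratio was 1.22 ± 0.37, or 2.32-fold (95% interval 1.80 to 2.996, adjusted p = 0.0022). On the log2 scale this is 0.95 with replicate 2 left out and 1.48 with replicate 1 left out. With raw signals corrected by normexp in place of the processed signals, the mean was 0.99 after loess and 0.92 after median centring.

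Eomes, on chromosome 9, encodes a T-box factor needed for trophoblast stem cells and, later, for mesoderm and endoderm formation. It was the only factor with 2 probes above background. The brighter probe had 6415 and 7874 in the overexpression channel, against 3376 and 3671 in the WT channel, and a log2 ratio of 1.01 ± 0.12 (2.02-fold, 95% interval 1.69 to 2.42, adjusted p = 0.0014). The dimmer probe had 1464 and 1792 against 880 and 979, and a log2 ratio of 0.80 ± 0.097 (1.75-fold, 95% interval 1.46 to 2.08, adjusted p = 0.0026). Both probes were higher on both arrays and their intervals overlapped, so they gave the same direction and amounts within the error of the test.

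Gata3, on chromosome 2, encodes a zinc finger factor that acts beside CDX2 downstream of TEAD4. Its signals were 2830 and 2934 in the overexpression channel, against 1951 and 2223 in the WT channel. The channels did not overlap, but the rise was small, at a log2 ratio of 0.47 ± 0.097 (1.38-fold, 95% interval 1.16 to 1.65, adjusted p = 0.015). The interval of Gata3 lay wholly below that of Tead4. The scanner software's own p for Gata3 was 0.011 in replicate 1 and 0.054 in replicate 2.

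The AP-2 genes were measured by 3 probes. AP-2 proteins are a family of transcription factors of trophoblast, epidermis and neural crest, and the one encoded by Tfap2c is also made in germ cells. The Tfap2c probe, on chromosome 2, had 13836 and 12842 in the overexpression channel, against 9031 and 12456 in the WT channel. The lowest overexpression value lay above the highest WT value, yet the ratio was 1.53 in replicate 1 and 1.03 in replicate 2, with the arrays differing mostly in the WT channel. The log2 ratio of 0.33 ± 0.40 did not pass (adjusted p = 0.13), and its 95% interval ran from 0.96-fold to 1.64-fold, which leaves room for a rise of the size seen for Gata3. Tfap2c passed under a prior variance with an intensity trend (adjusted p = 0.030) and under median centring (0.55, adjusted p = 0.0017), and its adjusted p ranged from 0.0017 to 1 over 9 alternatives.

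Tfap2a, on chromosome 13, is measured by probes named for different transcripts. The probe for NM_001122948 had 494 and 561 in the overexpression channel, against 285 and 374 in the WT channel, and a log2 ratio of 0.69 ± 0.15 (1.61-fold, 95% interval 1.34 to 1.94, adjusted p = 0.0048). The probe for NM_011547 had 17.5 and 13.0 in the overexpression channel, against 15.7 and 17.0 in the WT channel. It was not well above background anywhere, so the rise rests on the first probe, and nothing can be said of the transcript read by the second.

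Elf5, also on chromosome 2, encodes an ETS factor that reinforces Cdx2 and Eomes in trophoblast stem cells and is known to be DNA-methylated and silent in mouse ESCs. Its only probe had processed signals of 9.51 and 10.5 in the overexpression channel, against 9.41 and 24.5 in the WT channel. The raw spot signals were 54 and 60 against 84 and 104, over local backgrounds of 60 and 57 in the overexpression channel and 63 and 59 in the WT channel. Elf5 was therefore not detectable in either population, and no ratio is given for it.

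The later factors also rose. Hand1, a bHLH factor gene on chromosome 11, had 1332 and 1117 in the overexpression channel, against 814 and 767 in the WT channel, with a log2 ratio of 0.63 ± 0.12 (1.54-fold, 95% interval 1.29 to 1.85, adjusted p = 0.0060). Over the 1340 genes of chromosome 11 that were tested by their brightest probe, the median log2 ratio was -0.51, with 122 called higher and 879 lower, so Hand1 was among the minority of that chromosome that rose. The other chromosomes that carry factors had medians between -0.10 and -0.0094. Esx1, an X-linked homeobox gene of the placenta, had 1050 and 774 in the overexpression channel, against 669 and 610 in the WT channel. Its log2 ratio was 0.50 ± 0.22 (1.41-fold, 95% interval 1.15 to 1.73, adjusted p = 0.019), and the scanner software's p was 0.0023 in replicate 1 and 0.098 in replicate 2.

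**Figure D2:**
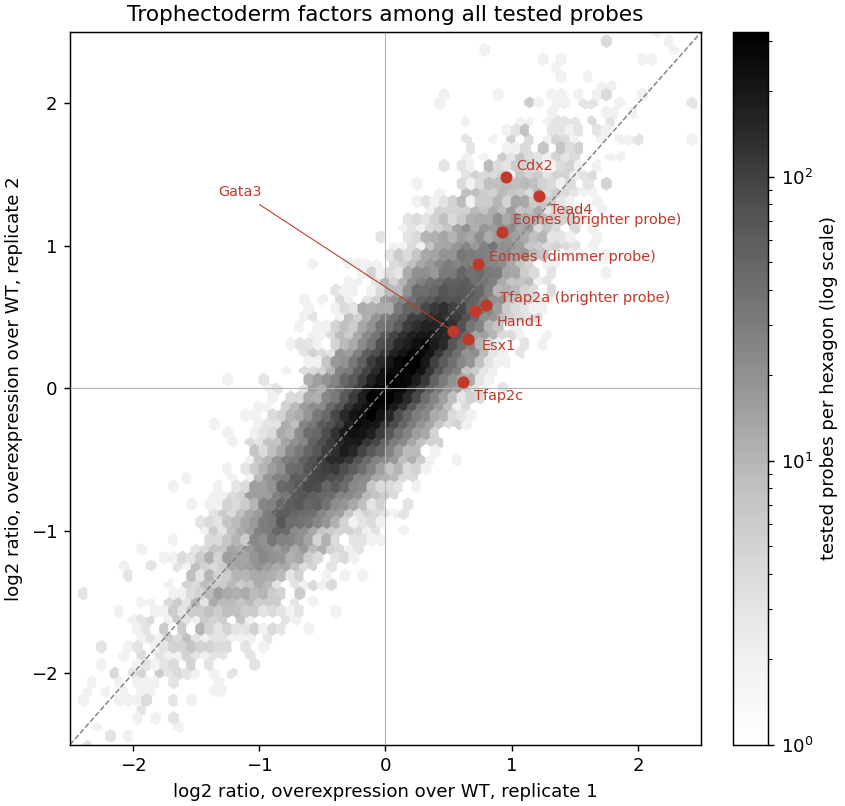
Log2 ratio of overexpression over WT in replicate 1 (x axis) and replicate 2 (y axis) for the tested probes, as hexagons shaded by the number of probes on a log scale, with the 9 probes of the trophectoderm factors in red and a dashed line of equality. All 9 lie above 0 on both axes, Cdx2 above the line at 0.95 and 1.48 and Tfap2c close to the horizontal axis at 0.62 and 0.044; 420 of the tested probes lie outside the axes.

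The arrays did not order the factors alike. Cdx2, Tead4 and both Eomes probes had the larger ratio in replicate 2, and the other 5 probes, those of Gata3, Tfap2c, Tfap2a, Hand1 and Esx1, in replicate 1. The median absolute difference between the arrays was 0.18 over the 9 probes on the log2 scale, against 0.15 over all tested probes. The tested probes' log2 ratios correlated between the arrays at Pearson r = 0.902, across probes that share the arrays' dye orientation and are not independent replicates. A ratio above 1 on both arrays, which all 9 probes had, was met by 43.5% of all probes. At least 1.5-fold on both arrays were 4 of 9 (8.06% of all probes). Under stricter rules 5 of 9 had a scanner software p below 0.01 on both arrays with the same sign (7.56% of all probes called higher), and 3 of 9, the probes of Tead4, Cdx2 and the brighter one of Eomes, passed a limma test against a 1.5-fold change (3.23% called higher).

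**Figure D3:**
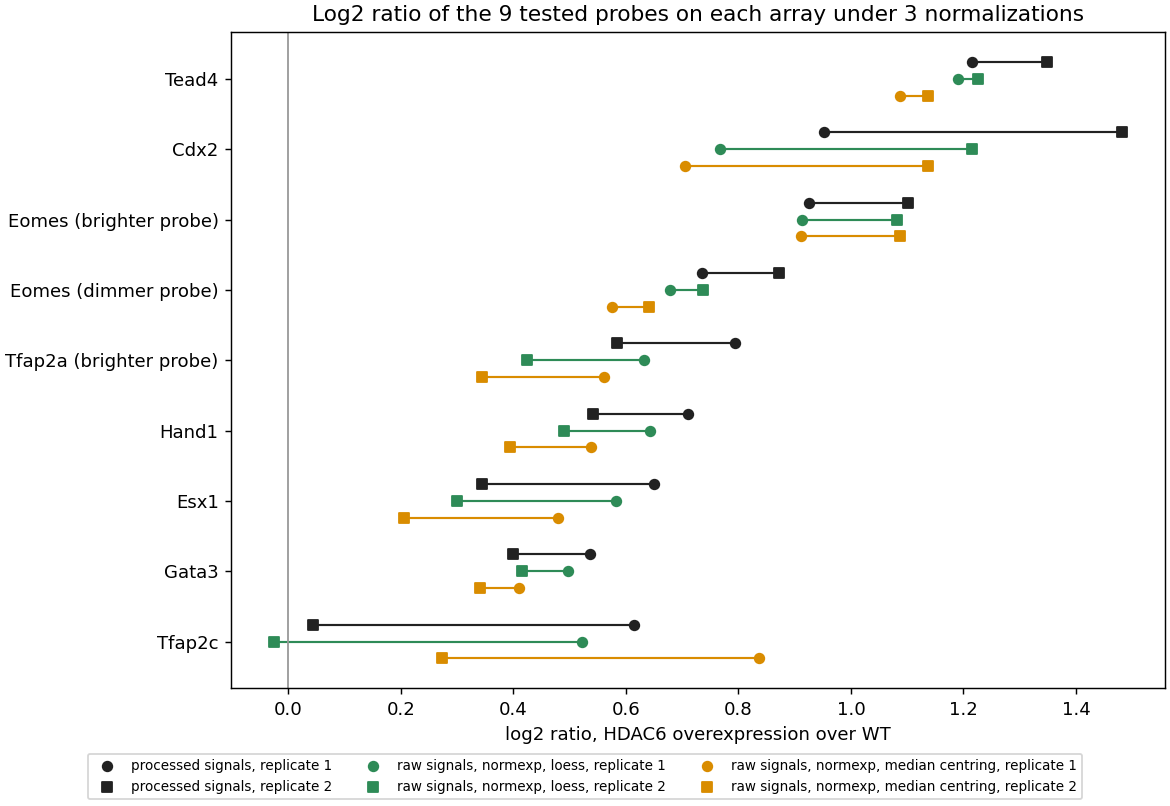
Log2 ratio of overexpression over WT of the 9 tested probes on each array, from processed signals (black), from raw signals after normexp and loess (green) and from raw signals after normexp and median centring (orange), with a line joining the arrays. The order of the upper 3 probes shifts between Tead4, Cdx2 and the brighter Eomes probe, and Tfap2c is the only probe with a value below 0, in replicate 2 after loess.

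Hdac6 itself was not called higher. Its brighter probe had 18275 and 17344 in the overexpression channel, against 16389 and 17806 in the WT channel, with a log2 ratio of 0.060 ± 0.14 (95% interval 0.87-fold to 1.25-fold, adjusted p = 0.67). The other probe gave 0.089 ± 0.13 (adjusted p = 0.52). Median centring, which has no loess step for dye differences that vary with intensity, gave 0.52 and 0.497, both called. Probes of other genes shifted under it in both directions. Nanog moved from a mean log2 ratio of -0.29 to 0.91 (replicate 1) and 0.93 (replicate 2), and Cdx2 from a mean of 1.22 to 0.92. The sources used here do not say whether these probes read the transgene, so they do not check the labels, and every direction refers to the channel as labelled.

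The factors were set beside 8 gene lists, each gene by its brightest probe. Over the 16069 genes tested in this way 19.4% were called higher and 27.7% lower, with a median log2 ratio of -0.061, and the 8 trophectoderm factor genes had a median of 0.66. No list was given a test of its own. All 14 pluripotency genes were well above background in both channels.

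Other genes of the trophoblast moved in both directions. Of 28 listed, 27 had a probe, 20 were tested, 11 were higher and 3 lower, and the median log2 ratio was 0.36. The simple-epithelium keratin gene Krt7 rose (1.23 ± 0.16, 4829 and 4940 in the overexpression channel against 2223 and 1948 in the WT channel). Krt19, another keratin gene of the trophectoderm, fell (-1.23 ± 0.082, 10866 and 11552 in the overexpression channel against 26510 and 26009 in the WT channel), as did the homeobox gene Dlx3, a regulator of placental labyrinth genes (-1.16 ± 0.0033). The 3 adjusted p ranged from 0.00076 to 0.00093. Krt19 and Dlx3 lie on chromosome 11, where 879 of 1340 tested genes were called lower and the median log2 ratio was -0.51. Whether their falls are part of that shift was not tested. The third gene called lower, Peg10, named here after its value was seen, had -0.49 ± 0.12. Of the list, 5 were not well above background in either channel on either array: Tpbpa and Tpbpb of the spongiotrophoblast, Prl3d1 of the giant cells, and Ctsq and Synb of the labyrinth.

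Paralogues of the factors were no more uniform. Of 16 listed and 13 tested, 7 were higher and 4 lower, with a median of 0.40. Cdx1, a caudal-type factor of the posterior embryo, rose, with 1624 and 4191 in the overexpression channel against 871 and 912 in the WT channel (1.55 ± 0.92, adjusted p = 0.0086), and most of that change came in replicate 2 (log2 ratio 2.20, against 0.90 in replicate 1). Hand2 rose by 0.94 ± 0.35 (adjusted p = 0.0043) at low signals, 76.9 and 122 against 47.3 and 53.7. After normexp and loess it had 0.40 (replicate 1) and 0.58 (replicate 2). Tfap2e, an AP-2 gene, fell, with 226 and 273 against 659 and 618 (-1.36 ± 0.26, adjusted p = 0.0010). The brightest probe of Tbr1, a T-box gene related to Eomes, fell (-1.01 ± 0.013, adjusted p = 0.0012), whereas its other tested probe rose (1.31, adjusted p = 0.0025), so no direction is given for Tbr1. The count of 4 lower includes it by its brightest probe. Tfap2b and Tfap2d were not well above background in either channel.

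The Hippo pathway controls whether YAP and its relative TAZ reach TEAD4. All 18 listed genes were tested, 6 were higher and 5 lower, and the median was -0.0042. Amot, which encodes a scaffold protein that holds YAP in the cytoplasm, rose (1.55 ± 0.078, 9890 and 10014 in the overexpression channel against 3257 and 3560 in the WT channel, adjusted p = 0.00040). So did Lats2, a kinase gene that inhibits YAP (1.19 ± 0.28, adjusted p = 0.0016, and 0.499 by its other probe), and the YAP target genes Ankrd1 (0.89 ± 0.42, adjusted p = 0.0074) and Ccn2 (0.89 ± 0.054, adjusted p = 0.0018). Yap1 itself, singled out after its values were seen, had 0.035 ± 0.10 (adjusted p = 0.80). Of the 5 genes called lower, Wwc1 (-0.72) and Nf2 (-0.34) lie on chromosome 11, where 879 of 1340 tested genes were called lower. They are named after their values were seen, and the other Nf2 probe had 0.085 (adjusted p = 0.51).

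Of the 14 pluripotency genes 7 were higher and 2 lower, with a median of 0.31. Tbx3 (2.70 ± 0.16), Tfcp2l1 (1.501 ± 0.14), Klf4 (0.97 ± 0.017) and Esrrb (0.73 ± 0.14), all transcription factor genes of the naive state, rose, with adjusted p between 9.9e-05 and 0.0039. The 2 called lower, named after their values were seen, were Dppa4 (-0.34 ± 0.092) and Zfp42 (-0.502 ± 0.027), and Dppa4 had -0.045 in replicate 1 and 0.080 in replicate 2 after median centring. Pou5f1 had 28885 and 32496 in the overexpression channel, against 26878 and 25842 in the WT channel, a log2 ratio of 0.22 ± 0.16 that did not pass (adjusted p = 0.15). It was called higher under 3 of the 9 alternatives with a test, at 0.37 after normexp and loess (adjusted p = 0.0075), at 1.06 after normexp and median centring (adjusted p = 1.0e-06) and at the same 0.22 with an intensity trend (adjusted p = 0.041), and its adjusted p ranged up to 1 over the 9. Median centring also called 11 of the 14 genes higher and 1 lower.

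Eomes, Cdx2 and Hand1 are also genes of the gastrulating mesoderm, and Tfap2a of ectodermal derivatives, so lists for these were set beside them. Of 18 mesoderm genes 15 were tested, 4 were higher and 6 lower, with a median of -0.080. The cardiac homeobox gene Nkx2-5 fell (-1.90 ± 0.12, adjusted p = 0.00024), as did Mesp1 (-1.17 ± 0.67, adjusted p = 0.0088) and the brighter probe of the receptor gene Kdr (-1.10 ± 0.18, adjusted p = 0.0014), whose other probe had -0.041 (adjusted p = 0.75). Mesp1 had low signals, 44.1 and 77.6 in the overexpression channel against 138 and 126 in the WT channel. After normexp and loess it had -0.81 and -0.46. Lhx1 rose (0.83 ± 0.20, adjusted p = 0.0033). Of 14 genes of surface ectoderm and neural crest, all tested, 7 were higher and 6 lower, with a median of 0.18. The 7 include Grhl2 by its brightest probe (0.44), whereas its other probe was called lower (-0.34, adjusted p = 0.035). Msx2 (1.12 ± 0.015), Snai2 (1.05 ± 0.066) and Dlx5 (0.87 ± 0.29) rose, and Pax3 (-0.91 ± 0.17) fell, with adjusted p between 0.00091 and 0.0042. Dlx5 and Pax3 had low signals. After normexp and loess Dlx5 had 0.53 and 0.71, and Pax3 -0.61 and -0.74.

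Markers of other cell types moved with the factors. Of 20 primitive endoderm markers, all tested, 19 were higher and 1 lower, with a median of 3.05 (3.14 in replicate 1 and 2.96 in replicate 2). Cubn (5.51 ± 0.055), Gata4 (4.96 ± 0.17) and Foxa2 (4.93 ± 0.13) led those measured in both channels. Ttr, whose WT signal was near background, was higher, with a computed bound of 31.3-fold (4.97 on the log2 scale). After normexp and loess its log2 ratios were below that bound, at 4.57 and 3.87. The marker called lower was Afp (-0.65 ± 0.063), named after its value was seen. Its signals were low, 54.0 and 52.3 in the overexpression channel against 82.2 and 84.6 in the WT channel. After normexp and loess it had -0.31 and -0.28. All 18 fibroblast markers were higher, with a median of 0.92 in replicate 1 and 1.40 in replicate 2, among them Col1a2 (1.71 ± 0.46), S100a4 (1.68 ± 0.25), Lum (1.52 ± 0.22) and Thy1 (1.47 ± 0.34). The summed signal of the primitive endoderm list was 225354 and 236674 in the overexpression channel, against 42943 and 49632 in the WT channel, and that of the fibroblast list 275208 and 358613 against 145131 and 130330. No fibroblast marker was at background in either channel. The fibroblast median was larger in replicate 2 and the primitive endoderm median smaller, but Cubn and Gata4 were larger there and Foxa2 smaller. The factor probes differed between the arrays in both directions. Their median absolute difference of 0.18 on the log2 scale was near the 0.15 of all tested probes. The part of either cell type in the rise of the trophectoderm factors was not tested.

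**Figure D4:**
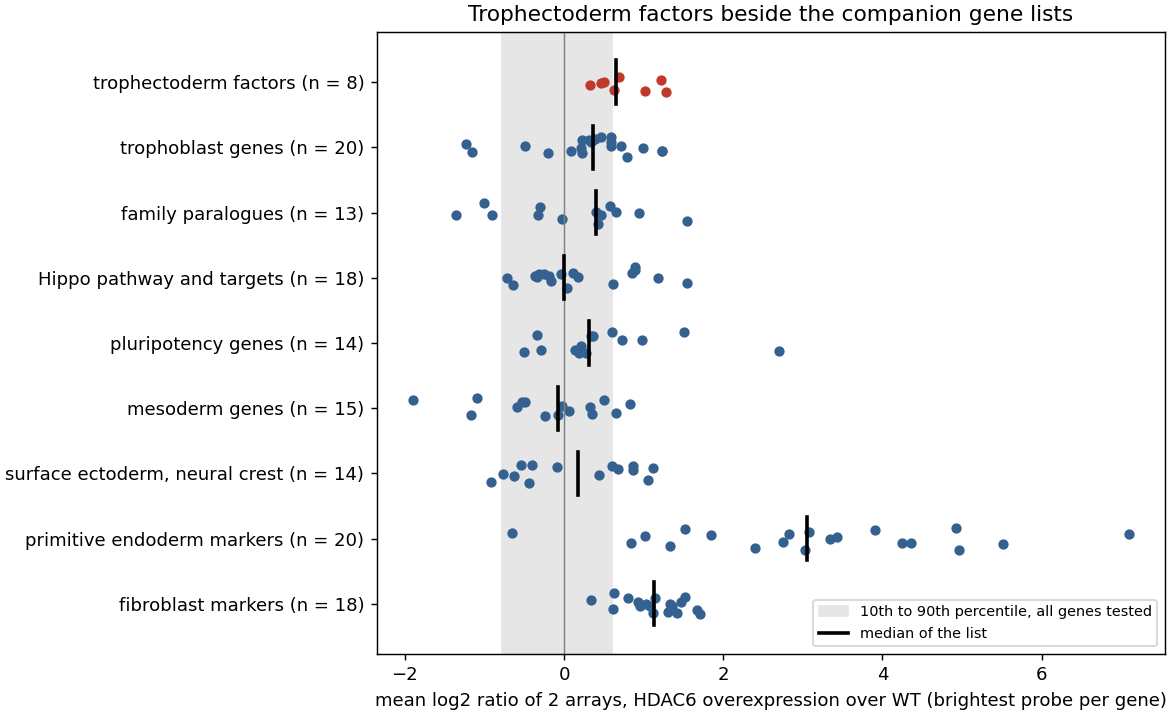
Mean log2 ratio of overexpression over WT (2 arrays, brightest probe of each gene) of the tested trophectoderm factor genes (red) and of the tested genes of 8 lists (blue), with the median of each list as a black bar and the 10th to 90th percentile of all genes tested in grey. The factors, with a median of 0.66, all lie above 0, the trophoblast genes, paralogues and Hippo genes lie on both sides of 0, and the primitive endoderm markers lie farthest to the right; Ttr, the point farthest right, is drawn at its ratio although its WT signal gives only a bound.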

How the data were processed

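RNA of both conditions was measured on 2 arrays, 1 dye each. The authors quantified the scans in Agilent Feature Extraction 11.5.1.1, per the file headers. Its deposited processed intensity values have background and spatial trend removed and dyes balanced by linear and lowess steps. The deposited raw median intensity values carry no normalization. The deposited log10 ratio is that of processed Cy5 over Cy3, and beside it stands a deposited p-value of the software's error model. The deposited series table holds log2 ratios of WT over overexpression. Its columns correlated with the scanner ratios at -1.000 and -1.000, their medians were -0.0074 and 0.062, and any further centring is unknown. Per the file headers, spike-in log ratios ran at a slope of 0.72 and 0.71 of those expected, with intercepts of 0.46 and 0.41 (log10). No ratio was adjusted for the spike-ins.

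Each array had 62976 spots, 3671 of them controls, and 269 and 313 outlier-marked spots were left out. Well above background were 69.4% and 69.3% of the overexpression spots, against 69.6% and 68.8% of the WT spots. Of 55681 probes, 26762 matched 1 gene symbol of the RefSeq table (GRCm38.p6) by accession without its version, 0 matched several, and 28919 stayed unnamed. The array grid uses mm9, so no probe coordinates are given. Spots of a probe were averaged, and each factor probe had 1 spot. The 38393 probes with a channel that was well above background on each array were fitted with limma 3.58.1 under R 4.3.3 (two-sided moderated test of an intercept by lmFit and eBayes), with no pseudocount. The fit had 1 residual and 4.75 prior degrees of freedom. Where a channel was not well above background on both arrays, a bound was computed per channel after Aquantile normalization and is open to dye bias. The floor is the lowest signal among probes well above background. The number of arrays limits the precision.

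Named genes are the 9 factors, Hdac6, Pou5f1, and in each list up to 4 called members, taken by absolute log2 ratio, with the same sign on both arrays. Of these, 1 gene is not reported here, nor are the 3 genes nearest to Cdx2 in signal, which the rule also named, since that distance sets one probe's level against another's. The factors and lists were chosen with earlier results of these data known. Alternatives covered normalization, filters, probes, prior, call rule and replicates.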

Additional observations from a re-analysis of the deposited data

How the results depend on the processing

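The count of 8 factor probes higher stayed between 7 and 9 under the normexp and loess values, median centring, the deposited series table, no filter, a filter on both channels, kept outlier spots, the brightest probe only and an intensity trend, and none was called lower in any of these. Only normexp with loess and median centring recomputed the factors' ratios. The other settings kept these ratios and could change only which probes were tested and their p. Stricter call rules left 3 (limma against 1.5-fold), 5 (scanner software p below 0.01 on both arrays) and 1 (2-fold on both arrays). Over all probes these 3 rules called 1241, 2901 and 1047 higher and 1586, 3665 and 1363 lower, against 8873 and 8832, and a fit of the 16069 brightest probes alone, with p adjusted over them, 3413 and 4807 (3113 and 4454 of these passed in the fit of all probes). Median centring called both Hdac6 probes, at 0.52 and 0.497. With 1 array left out the spread cannot be estimated, so such values have no test. They ranged from -0.038 to 0.157 for the brighter Hdac6 probe and from -0.0055 to 0.18 for the other, and each factor probe kept its direction. Among the list counts, none moved by over 1.5 times after normexp and loess or with the filter on both channels. Median centring, chosen for the lists after the data were seen, moved 2 of them, to 11 pluripotency genes higher and 1 lower, and the cause was not tested. The ratio within an array already pairs the conditions, so no other pairing was fitted. Signal over background limits Elf5 and the dimmer Tfap2a probe, which gave no ratio.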
